A study of Mus musculus with 18 samples.

Results

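Day 8 of a mouse primed-to-naive transition (D8) was set against reference embryonic stem cells (ESC) to ask how far the transition cultures still stood from the naive state. The comparison takes the 3 D8 libraries and the 3 ESC libraries by their labels, 6 of the 18 RNA libraries of the series. The series also holds EpiSC, labelled as primed cells and taken at day 0, the transient groups D3 and D5 at days 3 and 5, and rES, labelled as naive cells, with 3 libraries each. D8 cells carry the label transient, and ESC are labelled as mouse embryonic stem cells. No label gives a strain, a genetic change, an added agent, a culture medium, the use of feeder cells or the line behind either group, so a difference between lines or media and a difference between day 8 and the naive state cannot be told apart. Whether the replicates came from different dishes or passages is not labelled either. The p-values below reflect spread within the groups of all 18 libraries, fitted together, and not that of D8 and ESC alone. That spread may be technical. The library kit removed ribosomal RNA from total RNA, so RNAs without a poly(A) tail could be sequenced too.

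Pluripotent cells exist in a naive form, which resembles the inner cell mass of the blastocyst, and a primed form, which resembles the epiblast after implantation. Naive mouse cells are held by a network that includes Nanog, Esrrb, Klf4 and Tfcp2l1, while Pou5f1 and Sox2 serve both forms. The study's title names Cpt1a, the outer mitochondrial enzyme that joins long-chain fatty acids to carnitine so that they can be oxidised in mitochondria.

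At day 8 every shared pluripotency factor and most naive factors stood below their ESC levels, while most of the trophoblast, interferon-stimulated, antigen-presentation and lysosomal genes tested stood above them. Genes of DNA replication and mitosis were lower without exception in the list examined. Fatty acid oxidation genes were mostly higher, but Cpt1a itself was lower. Bulk libraries cannot tell fewer cells of a type from less RNA per cell.

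Deposited counts summed to 64996458, 101607352 and 63487097 in D8 replicates 1 to 3 and to 59041618, 60054456 and 70833096 in ESC replicates 1 to 3. Of 17545 genes tested, 12479 (71.1%) differed between D8 and ESC at an adjusted p under 0.05. At D8 6800 genes (38.8%) were higher and 5679 (32.4%) were lower. Differences of at least 2-fold were called for 4920 genes higher at D8 (28.0%) and 2999 lower (17.1%). At 16-fold or more the balance was wider, with 1202 genes higher and 47 lower. The 3 D8 libraries all lay above the 3 ESC libraries for 40.1% of genes and all below them for 34.9%, 75.0% in either direction. CPM are counts scaled to library size, with TMM factors. At D8, 91 genes averaged 10 CPM or more but stayed under 0.17 CPM in every ESC library. That limit is the lowest CPM that 12 counts give in an ESC library. The opposite kind numbered 0, with a stricter limit of 0.122 CPM, the lowest that 12 counts give in a D8 library. The median log2 difference, D8 minus ESC, over all genes tested was 0.11.

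Set beside the other groups, rES and not D8 was nearest to ESC. The 5 comparisons share the ESC libraries. EpiSC differed from ESC at 67.3% of genes, D3 at 70.0%, D5 at 73.6%, D8 at 71.1% and rES at 33.5%. The median absolute log2 difference from ESC was 0.825 in EpiSC, 0.909 at D3, 1.12 at D5, 1.04 at D8 and 0.359 in rES. On this measure D3, D5 and D8 stood farther from ESC than EpiSC did. The order of D8 and EpiSC depended on the measure: the root mean square log2 difference between 1 library and 1 ESC library was 2.18 to 2.38 for D8 and 2.379 to 2.419 for EpiSC. Pairs of D8 libraries had Pearson correlations of log2 CPM across genes of 0.9742 to 0.978, pairs of ESC libraries 0.9811 to 0.9824, and pairs of 1 D8 and 1 ESC library 0.8226 to 0.8547, while pairs of 1 EpiSC and 1 ESC library had 0.8292 to 0.8312.

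**Figure D1:**
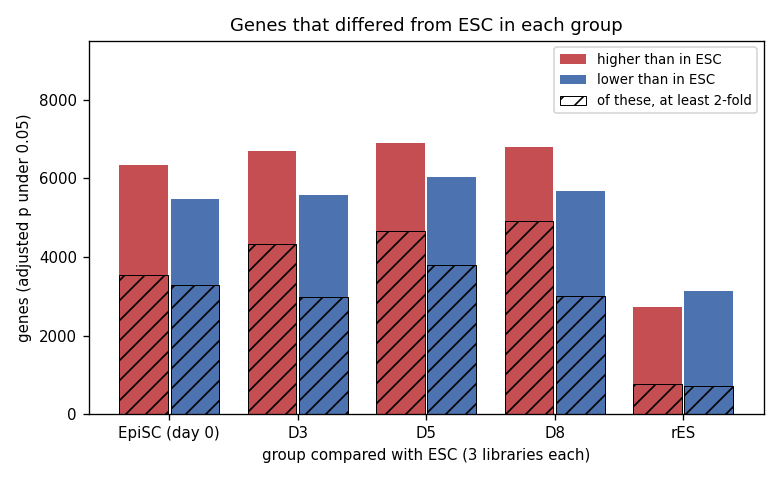
Number of genes that differed from ESC at an adjusted p under 0.05 (y axis) in EpiSC, D3, D5, D8 and rES (x axis, 3 libraries each), higher in red and lower in blue, with hatching for those of at least 2-fold. D8 had 6800 genes higher and 5679 lower, against 2736 and 3141 in rES.

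The naive network was the first measure of distance. Of 22 naive factors and markers, 20 were lower at D8, Dppa3 and Sox15 were higher, and the median log2 difference was -1.51. Nanog, a homeobox factor of the naive network, stood at 207, 283 and 346 CPM in D8 replicates 1 to 3 and at 1113, 1090 and 1140 CPM in ESC. Every D8 library lay far under every ESC library, and D8 reached 25% of the ESC mean (log2 difference -2.0 ± 0.16, approximate SE, adjusted p = 2.09e-09). Esrrb, an orphan nuclear receptor, had 133, 167 and 261 CPM at D8 and 761, 813 and 771 CPM in ESC (log2 difference -2.07 ± 0.25, adjusted p = 7.12e-07). Tfcp2l1, a transcription factor downstream of LIF, had 239, 287 and 438 CPM at D8 and 1288, 1255 and 1422 CPM in ESC. Zfp42, also called Rex1, had 40.3, 56 and 87.3 CPM at D8 and 316, 323 and 316 CPM in ESC, so that D8 averaged 19.2% of ESC. Klf4, a zinc finger factor that is also a LIF target, came closer, with 109.8, 106 and 176 CPM at D8 and 337, 310.5 and 286 CPM in ESC (41.9% of ESC, adjusted p = 4.62e-06).

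In each of these 5 genes the ESC libraries were close together while D8 replicate 3 was the highest of the D8 libraries and still below all ESC libraries. The largest gap of the naive list was in Tdh, a threonine dehydrogenase that mouse ESC use to feed one-carbon metabolism, at 88.5 ± 24.3 CPM at D8 and 743 ± 20.2 CPM in ESC (SD, n = 3 each; log2 difference -3.07 ± 0.17, adjusted p = 2.13e-11). Gbx2, a homeobox factor, followed at 4.62 ± 2.58 CPM at D8 and 29.8 ± 1.8 CPM in ESC. The maternal-effect gene Dppa3, which lies outside the naming rule and was chosen after its values were seen, had 18.1, 28 and 47.8 CPM at D8 and 17.1 to 20.5 CPM in ESC. Only D8 replicate 1 lay within the ESC range. The call (log2 difference 0.73 ± 0.29, adjusted p = 0.0319) was lost without D8 replicate 3 or without ESC replicate 3, when 0 naive members were higher. Sox15, chosen in the same way, had 7.72 ± 1.67 CPM at D8 and 5.17 ± 0.622 CPM in ESC (adjusted p = 0.0234). The Sox15 call was also lost without D8 replicate 3 or without ESC replicate 3.

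Shared pluripotency factors were lower at D8 for 12 of 12 members, with a median log2 difference of -1.5. Pou5f1, which encodes OCT4 and is needed in both pluripotent forms, had 75.2, 59.2 and 145 CPM at D8 and 327, 328 and 332 CPM in ESC (28.3% of ESC, log2 difference -1.82 ± 0.37, adjusted p = 0.000226). Its levels in the other groups averaged 331 CPM in EpiSC, 27.6 CPM at D3, 7.01 CPM at D5 and 339 CPM in rES. Pou5f1 was thus above the D5 mean in each D8 library and below ESC in all of them. Sox2, its partner on DNA, had 72.8, 86 and 190.2 CPM at D8 and 301, 291 and 246 CPM in ESC (41.6% of ESC, adjusted p = 0.00041). Lin28a, an RNA-binding blocker of let-7 maturation, averaged 11 ± 1.57 CPM at D8 and 37.4 ± 3.93 CPM in ESC, with 765 CPM in EpiSC. Rif1, a regulator of replication timing, averaged 156 ± 34.7 CPM at D8 and 473 ± 34.8 CPM in ESC. D8 replicate 3 was the D8 library nearest to ESC for 12 of these 12 genes and for 20 of the 22 naive genes.

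**Figure D2:**
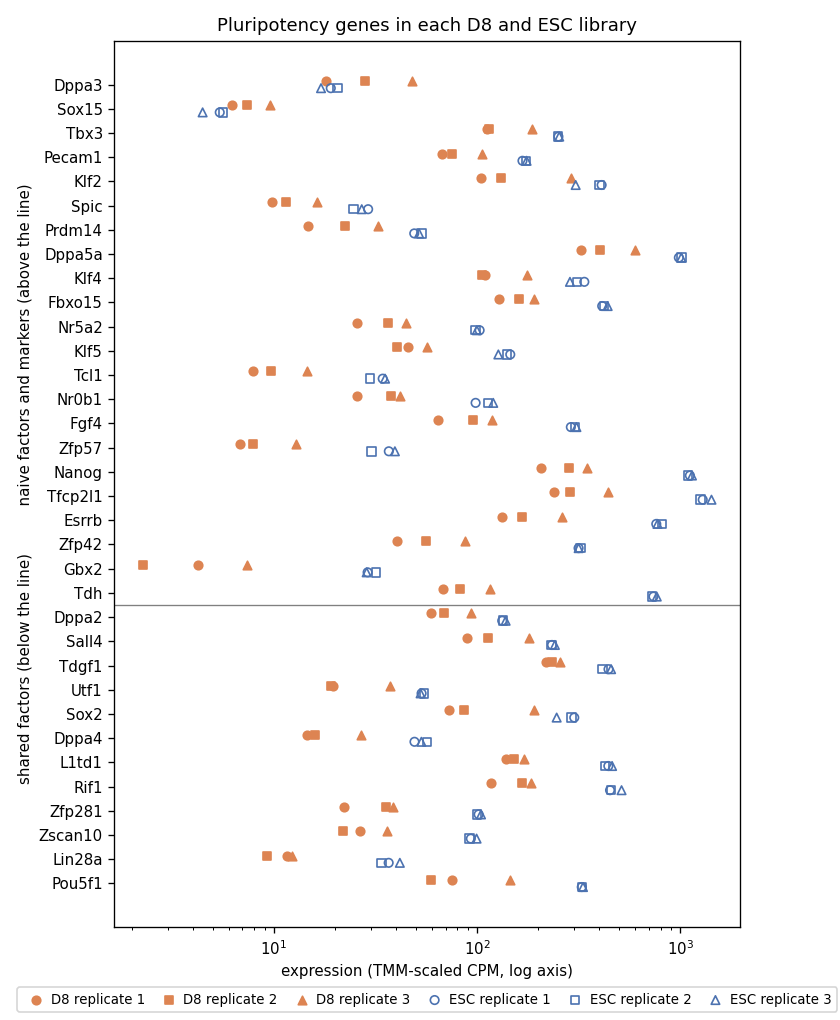
TMM-scaled CPM (x axis, log) of 22 naive factors and markers and 12 shared pluripotency factors (y axis) in each D8 library (filled orange) and each ESC library (open blue). D8 symbols lie left of the ESC symbols for 32 of the 34 genes named by these lists, and the triangle of replicate 3 is mostly the nearest to ESC.

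Primed markers were mostly lower at D8 than in ESC, at 72.2% of those tested against 32.4% of all genes. Of 18 tested, 13 were lower and 4 were higher (median log2 difference -1.69, or -1.34 with Fgf8, which had no count at D8, at its bound). The higher members were Fgf5, Pou3f1, Cldn6 and Sox4. Fgf5, a growth factor of the implanted epiblast, had 1.94, 1.26 and 0.927 CPM at D8, against 0, 0.0491 and 0.212 CPM in ESC and a mean of 64.2 CPM in EpiSC. Cldn6, a claudin of tight junctions, had 55.4, 47.6 and 41.7 CPM at D8 and 1.77, 1.88 and 1.54 CPM in ESC (log2 difference 4.78 ± 0.18, adjusted p = 8.76e-14). Pou3f1, also called Oct6, averaged 9.54 ± 1.52 CPM at D8 and 1.57 ± 0.245 CPM in ESC, and Sox4, a SOX factor with wide expression that was chosen after its values were seen, averaged 86.4 ± 4.91 CPM and 19.8 ± 0.2 CPM.

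The primed genes that were lower included Otx2, a homeobox factor of the epiblast and forebrain, at 0.293, 0.54 and 1.56 CPM at D8 and 6.19, 3.85 and 4.72 CPM in ESC (adjusted p = 2.43e-06). Lefty2, a secreted antagonist of Nodal, averaged 36.7 ± 13.7 CPM at D8 and 323 ± 46.7 CPM in ESC; reads may be split uncertainly between it and its close paralog Lefty1. Zic2 and Zic5, zinc finger factors of early neural tissue, reached 16.6% and 14.7% of their ESC means. Dnmt3b, a de novo DNA methyltransferase, was lower by a smaller step, with 46.3, 52.8 and 63.1 CPM at D8 and 69.2, 71.9 and 73.4 CPM in ESC (log2 difference -0.4 ± 0.09, adjusted p = 0.000504). Sfrp2, a secreted WNT modulator, overlapped between the groups at 9.98 ± 1.59 CPM at D8 and 8.32 ± 0.806 CPM in ESC (adjusted p = 0.0698).

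The genes farthest above ESC belonged to several tissues. Gjb2, which encodes the gap junction protein connexin 26 (chr14:57098600-57104702 on GRCm38), had 4037, 3515 and 2388 CPM at D8 and 0, 0 and 0.113 CPM in ESC. Synb (chr14:69289344-69294299), an endogenous retroviral envelope gene that fuses trophoblast cells in the mouse placenta, had 236, 229 and 152 CPM at D8 and no count in ESC, at least 1089-fold higher with 12 deposited counts per library as the floor (adjusted p = 1.81e-11). Slc22a3, an organic cation transporter, had 278, 301 and 185 CPM at D8 and no count in ESC, which is at least 1347-fold higher (adjusted p = 4.29e-14). D8 replicate 3 was the lowest D8 library in all of these genes. Epn3, an epsin of endocytosis, had 600.1, 489 and 482 CPM at D8 and 0.117, 0 and 0 CPM in ESC.

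The kallikrein proteases Klk6 and Klk7 averaged 145 ± 39.9 and 114 ± 22.8 CPM at D8 and were at 0 in ESC, at least 765-fold and 604-fold higher. Olr1, a receptor for oxidised low-density lipoprotein, averaged 125 ± 24 CPM at D8, Dnase1l3, a secreted nuclease, 90.3 ± 13.9 CPM, and the mucin Muc15 88.9 ± 19.9 CPM, all with no count in ESC. Dmkn, an epidermal secreted protein, averaged 194 ± 16.6 CPM at D8 and 0.0218 CPM in ESC, and Tmem140 249.5 ± 45.3 CPM and 0.0516 CPM. None of these 11 genes averaged above 0.3 CPM in rES.

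Fewer genes stood far below ESC. Nkx1-2, a homeobox factor of the early neural tube, had 0.26, 0 and 0.0629 CPM at D8 and 20.5, 22.2 and 19 CPM in ESC (adjusted p = 2.11e-09). Lox, a collagen cross-linking oxidase that is also on the feeder fibroblast list, had 0.228, 0.275 and 0.173 CPM at D8 and 14.3, 17.5 and 13.6 CPM in ESC, although EpiSC averaged 0.0363 CPM and rES had no count. Spry4 and Etv4, both induced by FGF signalling through ERK, had means of 0.278 and 0.969 CPM at D8 and 11.6 and 22.9 CPM in ESC. Lox and Spry4 were therefore also low in rES, where Spry4 averaged 0.253 CPM.

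The thyrotropin-releasing hormone gene Trh averaged 2.16 ± 0.656 CPM at D8 and 67.5 ± 7.32 CPM in ESC (log2 difference -4.93 ± 0.22, adjusted p = 9.37e-13). Gstp1, a glutathione transferase with a close paralog, had 3.48, 1.2 and 3.14 CPM at D8 and 38.8, 50.5 and 60.6 CPM in ESC. The homeobox and forkhead factors Vax2 and Foxd1, the ubiquitin ligase gene Lonrf2, the sialyltransferase gene St8sia5, and Xkr5 were also among the 12 largest differences downward, at 0.307 to 1.45 CPM on average at D8 and 12.1 to 29.8 CPM in ESC. The rule that named these 5 required that the groups did not overlap.

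Trophoblast genes were far above ESC in the D8 libraries. The trophoblast forms the embryo's part of the placenta. Of 27 listed genes 23 were tested, 19 were higher at D8, 3 were lower and 1 was not called (median log2 difference 5.6). Their summed level was 12923 to 18861 CPM in D8 libraries and 667 to 688 CPM in ESC libraries. Most of that sum at D8 was Peg10, an imprinted placental gene, and without it the list summed to 2322, 2076 and 1908 CPM at D8 and to 380.2, 377 and 371 CPM in ESC. Hand1, a basic helix-loop-helix factor of giant cells, had 9.8, 14 and 12.5 CPM at D8 and no count in ESC, which is at least 64.1-fold higher (adjusted p = 5.58e-10). Gcm1, the factor that directs syncytiotrophoblast formation, had 41.5, 48.2 and 35.3 CPM at D8 and 0, 0.131 and 0 CPM in ESC. Syna, the second mouse syncytin, had 74.2, 54.1 and 56.1 CPM at D8 and 0.05, 0 and 0 CPM in ESC. Krt7, a keratin of trophoblast and simple epithelia, had 469, 404 and 336 CPM at D8 and 0.4, 0.278 and 0.537 CPM in ESC (log2 difference 9.84 ± 0.34, adjusted p = 3.09e-14).

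The early trophoblast factors did not all share that direction. Eomes was lower, at 1.85 ± 0.735 CPM at D8 and 17.2 ± 1.29 CPM in ESC (log2 difference -3.22 ± 0.27, adjusted p = 3.84e-09), as were Elf3 (-0.46 ± 0.10) and Tfap2a (-0.67 ± 0.17). Tead4, which acts at the top of the trophoblast programme, was not called, with 52.6, 40.8 and 49.1 CPM at D8 and 55, 52.1 and 49 CPM in ESC (adjusted p = 0.303). Cdx2, a factor of the first trophoblast cells, was higher (adjusted p = 0.0135); it was chosen, like the 3 lower genes, after its values were seen and had 1.61, 1.99 and 1.37 CPM at D8 and 0.5, 1.23 and 0.834 CPM in ESC. Tpbpa, Prl3d1, Prl2c2 and Ctsq, markers of spongiotrophoblast and giant cells, did not pass the filter on low counts.

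Other lineages were represented unevenly at D8. Primitive and visceral endoderm genes, which mark the extraembryonic endoderm, were higher in 10 of 15 cases, while Hnf4a and Apob, named after their values were seen, were lower (the median log2 difference was 2.11, or 2.04 with 2 genes at their bound). In this list 1 gene, not 2, was lower without D8 replicate 2 or 3 or ESC replicate 1 or 3. Their summed level was 1105 to 1262 CPM in D8 libraries and 275 to 289 CPM in ESC libraries. Pdgfra, a receptor found on primitive endoderm, had 27.5, 28.2 and 23.7 CPM at D8 and 1.18, 1.15 and 0.904 CPM in ESC (log2 difference 4.58 ± 0.29, adjusted p = 8.86e-11). Gata6, the factor that starts this lineage, averaged 16.3 ± 1.49 CPM at D8 and 1.5 ± 0.391 CPM in ESC, and Sox17 averaged 8.78 ± 1.24 CPM at D8 and 1.31 ± 0.491 CPM in ESC. Dab2, an endocytic adaptor, was at 36.2 ± 4 CPM at D8 and 3.49 ± 0.358 CPM in ESC. Amn and Sox7 were under 1.2 CPM in every library of both groups and were not called.

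Erythroid genes were higher for 10 of 12 (median log2 difference 4.63, or 3.65 with 3 genes at their bound), with a summed level of 90.1 to 151 CPM in D8 and 3.96 to 5.79 CPM in ESC libraries. The embryonic globin gene Hba-x had 17.6, 31.8 and 31.9 CPM at D8 and no count in ESC, which is at least 143-fold higher (adjusted p = 7.3e-08). Hba-a1 and Hba-a2, adult-type alpha globins of near-identical sequence whose reads may be split uncertainly, averaged 43.8 ± 25.8 and 15.8 ± 10.7 CPM at D8, and Hba-a1 had no count in ESC. Gata1, the factor that drives red cell and megakaryocyte genes, had 9.02, 10.3 and 7.57 CPM at D8 and 0, 0 and 0.268 CPM in ESC. Klf1, the defining erythroid Kruppel-like factor, was at 0.419 ± 0.0257 CPM at D8 and 0.536 ± 0.0672 CPM in ESC and was not called (adjusted p = 0.55).

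Endothelial genes were higher for 3 of 8 (37.5%, near the 38.8% of all genes, so the count sets the list apart in no way; median log2 difference 0.6), with summed levels of 98.5 to 110.1 CPM at D8 and 11.8 to 12.4 CPM in ESC. Flt1, a receptor for vascular endothelial growth factor that trophoblast also makes, carried most of that sum with 82.3, 86.1 and 83.9 CPM at D8 and 0.917, 1.11 and 0.82 CPM in ESC (log2 difference 6.43 ± 0.16, adjusted p = 5.72e-16). The other higher genes were Cdh5 and Tie1, named after their values were seen, at 4.31 ± 1.36 and 1.29 ± 0.493 CPM at D8. Emcn, a defining endothelial marker, was at 0 in all 6 libraries. Tek overlapped between the groups, at 13.6 ± 6.12 CPM at D8 and 10.5 ± 0.266 CPM in ESC.

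Mesoderm genes split, with 4 of 12 higher and 3 lower, shares of 33.3% and 25% that lie below those of all genes, and a median log2 difference of 0.06. Hand2, a heart and limb factor, had 14.7, 20.5 and 19.2 CPM at D8 and 0.734, 1.28 and 0.438 CPM in ESC (log2 difference 4.43 ± 0.32). Snai1, a repressor of E-cadherin, was at 5.19 ± 2.07 CPM at D8 and 1.86 ± 0.618 CPM in ESC. Gsc, an organiser homeobox gene, was lower at 2.37 ± 0.715 CPM at D8 and 5.16 ± 0.411 CPM in ESC (adjusted p = 0.0257), a call lost without D8 replicate 1 (adjusted p = 0.0743), D8 replicate 2 (0.091), ESC replicate 1 (0.0659) or ESC replicate 3 (0.0514). Mixl1 and Kdr, named after their values were seen, were the other lower genes, and 1 gene was lower without ESC replicate 3. Pdgfrb and Twist1 were not called. The summed level of this list was 42.2 to 53.2 CPM at D8 and 29.1 to 31.1 CPM in ESC.

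Neural progenitor genes were higher for 0 of 8 and lower for Sox1 and Nes (median log2 difference -0.25), and summed to 15.4 to 23.5 CPM at D8 and 37.6 to 38.7 CPM in ESC. The share lower, 25%, was below the 32.4% of all genes. Sox1, the earliest neuroectoderm SOX factor, averaged 3.39 ± 0.983 CPM at D8 and 8.58 ± 0.792 CPM in ESC (adjusted p = 0.00111). Nes, an intermediate filament gene, averaged 15.1 ± 3.53 CPM at D8 and 27.4 ± 1.42 CPM in ESC. Pax6, a factor of eye and brain, was under 1.3 CPM in every D8 and ESC library and was not called.

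Fibroblast markers, which would mark feeder cells if any were present, were higher at D8 for 11 of 14 and lower for Lox (median log2 difference 3.29). Their summed level was 1973 to 2963 CPM in D8 libraries and 413 to 468 CPM in ESC libraries. Lum, a keratan sulfate proteoglycan of connective tissue, had 64.5, 169.8 and 93.1 CPM at D8 and 0.584, 0.868 and 0.876 CPM in ESC (log2 difference 7.08 ± 0.39, adjusted p = 1.37e-11). Postn, a matrix protein bound by integrins, had 133, 217 and 140.4 CPM at D8 and 2.37, 2.44 and 3.18 CPM in ESC. Dcn, a collagen-binding proteoglycan, had 38, 81.7 and 49.4 CPM at D8 and 1.18, 0.426 and 1.4 CPM in ESC. D8 replicate 2 was the highest library for these 3 genes, and replicate 1 was the D8 library nearest to ESC for 11 of the 14 members. Acta2, smooth muscle actin, averaged 262 ± 22.3 CPM at D8 and 3.17 ± 1.12 CPM in ESC. Thy1 was not called at 1.32 ± 0.198 CPM at D8 and 0.805 ± 0.528 CPM in ESC, and S100a4 was at or near 0 in both groups. Most trophoblast, endoderm, erythroid and fibroblast markers tested, and 3 of the 8 endothelial ones, were higher at D8, and their part in the other differences from ESC was not tested.

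Epithelial genes were higher at D8 for 14 of 16, with Cdh1 lower and Ehf not called (median log2 difference 4.43). Krt18, a keratin of simple epithelia, had 1544, 1472 and 1156 CPM at D8 and 4.29, 5.31 and 4.07 CPM in ESC (log2 difference 8.25 ± 0.14, adjusted p = 6.08e-18). Krt19 averaged 85.7 ± 6.78 CPM at D8 and 0.708 ± 0.111 CPM in ESC. Esrp1, an epithelial splicing regulator, had 148, 131 and 115 CPM at D8 and 0.901, 0.737 and 1.4 CPM in ESC, against 96.2 CPM on average in EpiSC. Cdh1, E-cadherin, was chosen after its values were seen and differed little, at 1090 ± 69.9 CPM at D8 and 1368 ± 62.9 CPM in ESC (log2 difference -0.33 ± 0.06, adjusted p = 0.000164).

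Basement membrane genes were higher for 11 of 16 and lower for 5, with a median log2 difference of 2.02. Higher members made up 68.8% against 38.8% of all genes, and lower members 31.2%, near the 32.4% of all genes. The collagen IV chains led, with Col4a1 at 839.8, 753 and 719.6 CPM at D8 and 18.3, 16.4 and 15.7 CPM in ESC (log2 difference 5.52 ± 0.13, adjusted p = 2.44e-16) and Col4a2 at 609 ± 92.4 CPM at D8 and 11.4 ± 0.453 CPM in ESC. These 2 genes lie head to head on chromosome 8. Col4a5 averaged 77.8 ± 17.4 CPM at D8 and 0.886 ± 0.407 CPM in ESC. The laminin chains Lamb1 and Lamb2 had log2 differences of 2.89 ± 0.08 and 3.07 ± 0.11, and Lama1, the chain of embryonic basement membranes, averaged 226 ± 28.9 CPM at D8 and 52.5 ± 3.54 CPM in ESC. Lama3, Nid1, Nid2 and Fn1, named after their values were seen, were among the 5 lower genes, of which Lama3 had the largest difference (-2.12 ± 0.14).

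The Serpinb9 family, a cluster of serine protease inhibitors on chromosome 13 that includes placental members and inhibitors of granzyme, was higher at D8 for 7 of 7 (median log2 difference 9.69, or 8.29 with 3 genes at their bound). Serpinb9e had 346, 317 and 206 CPM at D8 and no count in ESC, which is at least 1533-fold higher (adjusted p = 7.76e-11). Serpinb9c had 64.6, 59.9 and 53.5 CPM and Serpinb9d 37.7, 35 and 25.7 CPM at D8, both with no count in ESC. Serpinb9f and Serpinb9g averaged 113 ± 29.1 and 98.2 ± 24.1 CPM at D8 and 0.123 and 0.086 CPM in ESC. D8 replicate 3 was the lowest D8 library for each of these 5 genes. Reads of these close paralogs may be assigned uncertainly among them.

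**Figure D3:**
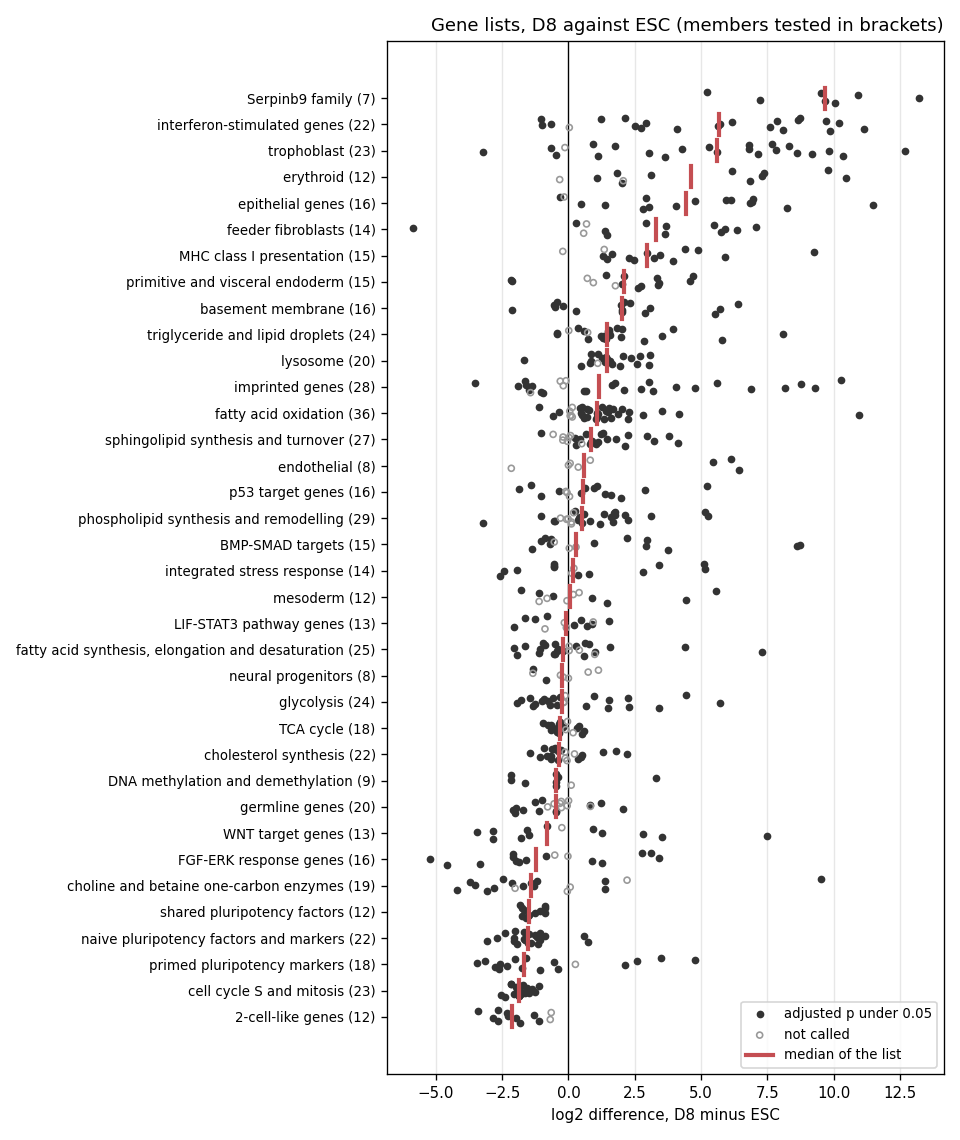
Log2 difference, D8 minus ESC (x axis), of every tested member of 36 gene lists (y axis, members tested in brackets), filled where the adjusted p was under 0.05 and open where not, with a red bar at the list's median. Medians run from 9.69 for the Serpinb9 family to -2.14 for 2-cell-like genes, against 0.11 over all genes.

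Interferon-stimulated genes, the antiviral genes switched on after interferon or nucleic acid sensing, were higher at D8 for 18 of 22, lower for Irf1, Ifitm1 and Ifitm2, and not called for Ifitm3 (median log2 difference 5.67, or 4.86 with 2 genes at their bound). Isg15, a ubiquitin-like modifier, had 109, 109 and 101 CPM at D8 and 0, 0.0491 and 0 CPM in ESC. Rsad2, which encodes the antiviral protein viperin, had 282, 259 and 224 CPM at D8 and 0.3, 0.164 and 0.0989 CPM in ESC. Ifit3, an RNA-binding antiviral gene with close paralogs, had 27.4, 29.9 and 20.1 CPM at D8 and no count in ESC, which is at least 137-fold higher (adjusted p = 4.92e-08). None of these genes overlapped with ESC, as held for 75.0% of all genes tested, and they were named for the size of their differences. Usp18, which removes ISG15 from proteins, averaged 182 ± 23.3 CPM at D8 and 0.17 ± 0.238 CPM in ESC, and Ifit1 averaged 56.5 ± 11.8 CPM at D8 and 0.0998 ± 0.0731 CPM in ESC.

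Among the same genes, Isg15 averaged 0.166 CPM in EpiSC, 1.09 CPM at D3, 58.5 CPM at D5 and 0.114 CPM in rES, so it was high in D5 and D8 libraries. Ifitm3, which blocks viral entry and is used by germ cells, had 104, 149 and 141 CPM at D8 and 122, 132 and 131 CPM in ESC (adjusted p = 0.844). Its neighbours Ifitm1 and Ifitm2, named after their values were seen, averaged 24 ± 5.15 and 76.4 ± 28.8 CPM at D8 and 38.2 ± 3.81 and 156 ± 18.3 CPM in ESC. Irf1, chosen likewise, averaged 11 ± 3.26 CPM at D8 and 22.2 ± 1.75 CPM in ESC.

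Since 18 of these 22 genes were higher at D8, promoters of the list are shown for the letters of the interferon-stimulated response element, a pair of GAAA with any 2 bases between them, searched on both strands from 250 bases before to 50 after each RefSeq start on GRCm38.p6. The letters occurred for 11 of the 18 interferon-stimulated genes with a window (61.1%), for 5 of 13 antigen-presentation genes (38.5%), for 3.99% of all 27025 genes with a window and for 3.59% of the tested genes with one. The following stretches read 5′ to 3′ on the gene's own strand and end before its start, with the matched letters in capitals. Isg15, Rsad2, Ifit1 and Bst2 were higher at D8, as was B2m of the antigen-presentation list, and Ifitm2 is shown as a lower gene that also holds the letters.
Isg15: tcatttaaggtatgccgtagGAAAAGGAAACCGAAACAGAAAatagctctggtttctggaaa
Rsad2: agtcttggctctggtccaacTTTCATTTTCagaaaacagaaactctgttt
Ifit1: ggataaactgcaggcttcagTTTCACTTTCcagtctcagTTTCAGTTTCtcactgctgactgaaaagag
Bst2: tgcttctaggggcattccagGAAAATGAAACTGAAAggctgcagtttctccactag
B2m: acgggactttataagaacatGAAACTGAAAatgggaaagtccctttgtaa
Ifitm2: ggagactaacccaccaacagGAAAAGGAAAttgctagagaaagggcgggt

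These stretches lie at chr4:156200855-156200916 on the minus strand for Isg15, chr12:26456543-26456592 on the minus strand for Rsad2 and chr19:34640765-34640833 on the plus strand for Ifit1. They lie at chr8:71537567-71537622 on the minus strand for Bst2, chr2:122147528-122147577 on the plus strand for B2m and chr7:140955978-140956027 on the minus strand for Ifitm2. Overlapping copies were counted within 1 run of capitals, 3 in Isg15 and 2 in Bst2. A match of letters is a description and does not show that a factor binds there.

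Class I antigen presentation, the pathway that loads peptides onto surface MHC molecules, was higher at D8 for 13 of 15 and lower for 0 (median log2 difference 2.96). H2-D1 and H2-K1, the classical heavy chains, had 137, 111 and 116 CPM and 214, 171 and 144 CPM at D8, against 1.92, 2.15 and 1.92 CPM and 7.96, 9.63 and 7.45 CPM in ESC (log2 differences 5.91 ± 0.14 and 4.4 ± 0.2). B2m, the light chain, had 239, 206 and 165 CPM at D8 and 18.8, 17.7 and 19.6 CPM in ESC (adjusted p = 1.18e-14). Tap1, a subunit of the peptide transporter, averaged 25.5 ± 2.41 CPM at D8 and 0.825 ± 0.12 CPM in ESC, and the nonclassical gene H2-T23 35.4 ± 3.31 CPM at D8 and 0.0278 CPM in ESC. Heavy chain genes are similar in sequence, so reads may be shared among them. Psmb10, a subunit of the immunoproteasome, overlapped at 7.45 ± 1.78 CPM at D8 and 8.62 ± 0.718 CPM in ESC. Nlrc5, the transactivator of these genes, was at 0.345 ± 0.145 CPM at D8 and 0.117 ± 0.111 CPM in ESC and was not called.

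The cell cycle list was lower at D8 throughout. Of 23 genes of S phase and mitosis, 23 were lower at D8, each by at least 2-fold (median log2 difference -1.88), where 17.1% of all genes were called at least 2-fold lower. Mcm5, a subunit of the replicative helicase, had 91.2, 100.4 and 156 CPM at D8 and 668, 684 and 682 CPM in ESC (17.1% of ESC, log2 difference -2.55 ± 0.14, adjusted p = 1.58e-11). Mcm2, another subunit, averaged 178 ± 35.5 CPM at D8 and 797 ± 12.8 CPM in ESC. Foxm1, which drives mitotic genes, had 22.2, 27 and 30.3 CPM at D8 and 141, 137 and 145 CPM in ESC (adjusted p = 7.17e-14). Ccnb2, a mitotic cyclin, averaged 28.8 ± 5.07 CPM at D8 and 129 ± 4.51 CPM in ESC, and the topoisomerase gene Top2a 202 ± 43.8 CPM at D8 and 834 ± 36.4 CPM in ESC. D8 replicate 3 was the D8 library nearest to ESC for 22 of the 23 genes. Mcm5 averaged 427 CPM in EpiSC, 309 CPM at D3, 181 CPM at D5 and 509 CPM in rES.

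Promoters of this list were read for the letters TTTCCCGC and TTTGGCGC, forms of the E2F element, on both strands of the same windows. They occurred for 6 of 18 cell cycle genes with a window (33.3%), for 2 of 13 antigen-presentation genes (15.4%), for 1 of 18 interferon-stimulated genes (5.56%), for 1.8% of all genes with a window and for 3.0% of the tested genes with one. The helicase genes Mcm5, Mcm6 and Mcm7 and the replication licensing gene Cdc6 are shown as genes that hold the letters, with the matched letters in capitals. All 23 genes of the list were lower at D8, with or without the letters.
Mcm5: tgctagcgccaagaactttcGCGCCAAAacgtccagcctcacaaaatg
Mcm6: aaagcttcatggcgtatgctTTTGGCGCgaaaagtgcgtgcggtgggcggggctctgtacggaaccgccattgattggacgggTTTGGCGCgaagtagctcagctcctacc
Mcm7: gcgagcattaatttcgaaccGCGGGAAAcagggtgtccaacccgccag
Cdc6: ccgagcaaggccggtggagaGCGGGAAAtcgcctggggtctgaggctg

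Mcm5 was read at chr8:75109340-75109387 on the plus strand, Mcm6 at chr1:128359725-128359835 on the minus strand, Mcm7 at chr5:138172021-138172068 on the minus strand and Cdc6 at chr11:98907993-98908040 on the plus strand of GRCm38.p6. The log2 differences of Mcm6, Mcm7 and Cdc6 were -1.88 ± 0.08, -1.73 ± 0.12 and -1.95 ± 0.11.

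p53 targets were higher for 9 of 16 and lower for 4, with a median log2 difference of 0.56. These were shares of 56.2% and 25%, against 38.8% and 32.4% of all genes. Btg2, an antiproliferative gene, had 387, 366 and 350.5 CPM at D8 and 48.9, 54.3 and 46.1 CPM in ESC (log2 difference 2.88 ± 0.09, adjusted p = 4.3e-15). Sesn1 and Pmaip1, a stress regulator and a mediator of apoptosis, had log2 differences of 1.99 ± 0.07 and 1.6 ± 0.13, and the death receptor gene Fas averaged 5.27 ± 1.15 CPM at D8 and 0.11 ± 0.101 CPM in ESC. Gdf15, a stress cytokine, was lower at 2.45 ± 1.25 CPM at D8 and 9.12 ± 1.4 CPM in ESC. Ccng1 and Trp53inp1, also p53 targets, overlapped between the groups and were not called.

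Fatty acid oxidation is the pathway of the study's title. Of 36 listed genes, 28 were higher at D8, 3 were lower and 5 were not called (median log2 difference 1.09). Cpt1a (chr19:3322334-3385733), the liver form of carnitine palmitoyltransferase at the outer mitochondrial membrane, was among the 3 lower genes, with 73.5, 86.8 and 110.3 CPM at D8 and 194, 194 and 189 CPM in ESC. No D8 library reached the ESC range, and D8 stood at 46.9% of ESC (log2 difference -1.09 ± 0.1, adjusted p = 2.78e-08). Its other means were 1.61 CPM in EpiSC, 24.3 CPM at D3, 42.2 CPM at D5 and 299.8 CPM in rES. Cpt2 (chr4:107903981-107923610), the inner membrane partner, was higher at D8, with 96.9, 82.4 and 64.3 CPM against 26.6, 25.9 and 26.7 CPM in ESC (log2 difference 1.62 ± 0.13, adjusted p = 1.66e-09). Replicate 3 was the D8 library nearest to ESC in both genes.

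**Figure D4:**
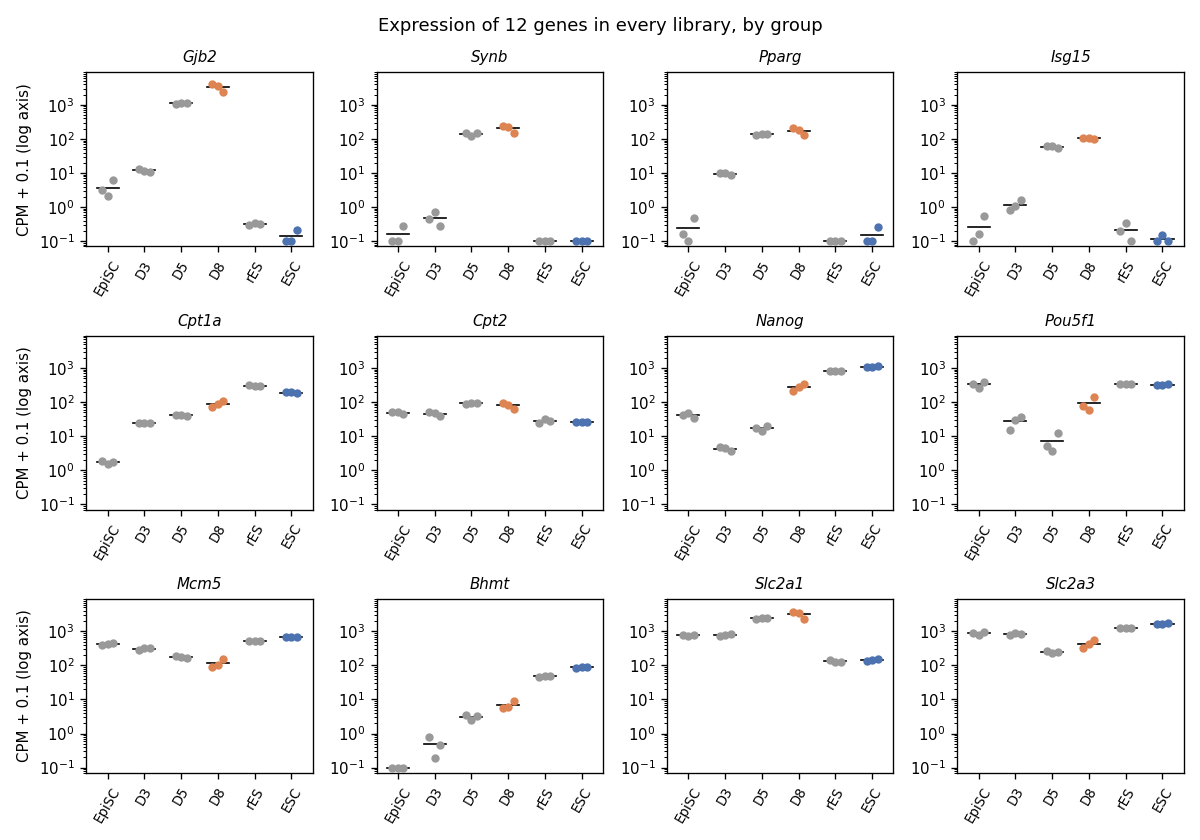
CPM plus 0.1 (y axis, log) of 12 genes in every library of the 6 groups (x axis, EpiSC to ESC), with a line at each group mean, D8 in orange and ESC in blue. Gjb2, Synb, Pparg and Isg15 are high at D5 and D8 and near 0 in ESC, while Cpt1a, Nanog, Pou5f1, Mcm5, Bhmt and Slc2a3 are lower at D8 than in ESC.

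Other genes of this list, which holds the regulator Pparg and the transporter gene Slc22a5 beside enzymes of oxidation, were farther above ESC. Pparg, the nuclear receptor that drives fat storage and placental development, had 215, 180.0 and 129 CPM at D8 and 0, 0 and 0.155 CPM in ESC. Acadl and Acadvl, dehydrogenases for long-chain acyl-CoA, averaged 30.9 ± 6.83 and 50.4 ± 8.85 CPM at D8 and 1.69 ± 0.231 and 10.4 ± 1.04 CPM in ESC (log2 differences 4.17 ± 0.22 and 2.27 ± 0.18). Slc22a5, the plasma membrane carnitine transporter, had 80.5, 64.1 and 55.1 CPM at D8 and 5.55, 5.83 and 5.67 CPM in ESC (log2 difference 3.54 ± 0.13, adjusted p = 7.48e-14). Cpt1b, the muscle form of Cpt1a, averaged 6.43 ± 0.239 CPM at D8 and 0.897 ± 0.687 CPM in ESC, and it is annotated next to Chkb on chromosome 15. The other lower genes were Acad9 and Echs1, named after their values were seen, with log2 differences of -0.35 ± 0.06 and -0.57 ± 0.07. Acads and Etfa overlapped between the groups at 108 ± 15.5 and 103 ± 4.59 CPM at D8 and 97.4 ± 5.24 and 95.9 ± 7.51 CPM in ESC.

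Triglyceride and lipid droplet genes were higher at D8 for 20 of 24 and lower for Lpin1 and Lipe (median log2 difference 1.45). The count lower was 1 without D8 replicate 1, D8 replicate 2, ESC replicate 1 or ESC replicate 2. Dgat2, which makes triglyceride from diacylglycerol, had 236, 206 and 174 CPM at D8 and 4.24, 3.86 and 2.97 CPM in ESC (log2 difference 5.79 ± 0.13, adjusted p = 2.44e-16). Plin4, a coat protein of lipid droplets, had 53.4, 50.4 and 40.9 CPM at D8 and 0.133, 0 and 0.283 CPM in ESC. Abhd5, which activates triglyceride lipase, averaged 130.0 ± 12.2 CPM at D8 and 11.2 ± 0.599 CPM in ESC, and the lipin phosphatases Lpin2 and Lpin3 had log2 differences of 2.03 ± 0.11 and 1.99 ± 0.16. Bscl2, which encodes seipin, overlapped at 42 ± 2.78 CPM at D8 and 41.7 ± 2.1 CPM in ESC.

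Fatty acid synthesis, elongation and desaturation went both ways, with 8 of 25 higher and 13 lower at D8 (median log2 difference -0.2). The share higher was 32% and the share lower 52%, against 38.8% and 32.4% of all genes. Fads3, a desaturase, had 167, 155 and 131 CPM at D8 and 0.934, 0.671 and 1.17 CPM in ESC (log2 difference 7.29 ± 0.3). Elovl1, which elongates saturated very long chains, averaged 363 ± 53.9 CPM at D8 and 17.2 ± 0.313 CPM in ESC. The lower genes included the elongases Elovl7 and Elovl2, at 24.2% and 26% of ESC, and Acacb, the mitochondrial acetyl-CoA carboxylase whose product malonyl-CoA inhibits CPT1, at 37.1, 34.6 and 40.5 CPM at D8 and 116, 119 and 117 CPM in ESC (adjusted p = 4.1e-12). Hacd3 and Scd3 overlapped between the groups.

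Phospholipid genes were higher for 19 of 29 and lower for 4, with a median log2 difference of 0.5. Those shares were 65.5% and 13.8%, against 38.8% and 32.4% of all genes. Cds1, which makes CDP-diacylglycerol, averaged 99.8 ± 16.4 CPM at D8 and 2.74 ± 0.499 CPM in ESC, and Lpcat2, which remodels phosphatidylcholine, averaged 14.9 ± 3.51 CPM at D8 and 0.355 ± 0.073 CPM in ESC. Pcyt1b, a regulatory enzyme of phosphatidylcholine synthesis, went the other way with 3.17, 4.2 and 4.92 CPM at D8 and 41.7, 39.3 and 35.4 CPM in ESC (log2 difference -3.23 ± 0.15, adjusted p = 1.32e-12). Pla2g4a, the cytosolic phospholipase that frees arachidonate, and Chkb, a choline kinase, had log2 differences of 3.1 ± 0.32 and 2.25 ± 0.16. Ptdss2 and Crls1 were not called.

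Sphingolipid genes were higher for 19 of 27 and lower for Ugt8a alone among those tested (median log2 difference 0.86), a count of 2 lower without D8 replicate 3. The sphingomyelin synthase genes Sgms2 and Sgms1 averaged 35.4 ± 8.65 and 119 ± 4.76 CPM at D8 and 1.98 ± 0.45 and 25.5 ± 1.63 CPM in ESC. Smpd1, the acid sphingomyelinase, had 108, 93.7 and 78.4 CPM at D8 and 9.67, 10 and 10.4 CPM in ESC (log2 difference 3.22 ± 0.13, adjusted p = 1.56e-13). Asah2 and Sgpp1, a ceramidase and a phosphatase of sphingosine phosphate, had log2 differences of 3.78 ± 0.33 and 2.14 ± 0.13. Sgpl1 and Asah1 overlapped between the groups.

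Cholesterol synthesis genes leaned the other way by count, with 6 of 22 higher and 12 lower at D8 (median log2 difference -0.35). These were 27.3% and 54.5%, against 38.8% and 32.4% of all genes. At 2-fold or more, 3 were called higher and 2 lower. Sc5d and Hsd17b7, late enzymes of the pathway, averaged 166 ± 36.4 and 99.9 ± 10.5 CPM at D8 and 35.6 ± 1.53 and 28.5 ± 0.497 CPM in ESC. Tm7sf2 and Idi1 were lower at 36.9% and 48% of ESC. Srebf2, the master regulator of the pathway, overlapped at 457 ± 33.7 CPM at D8 and 474 ± 2.93 CPM in ESC, as did Fdps.

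Lysosomal genes were higher at D8 for 18 of 20, with Ctsc lower and Ctsh not called (median log2 difference 1.44). Ctsd, an aspartic protease, had 2187, 1958 and 1778 CPM at D8 and 241, 243 and 226 CPM in ESC (log2 difference 3.06 ± 0.07, adjusted p = 3.83e-16). Ctsb and Ctsl, cysteine proteases, averaged 1921 ± 388 and 771 ± 63.5 CPM at D8 and 234 ± 6.31 and 149 ± 2.16 CPM in ESC. Psap, the precursor of sphingolipid activators, averaged 2404 ± 276 CPM at D8 and 369 ± 17.6 CPM in ESC, and Gaa, acid glucosidase, 288 ± 48.7 CPM at D8 and 48.4 ± 0.0757 CPM in ESC. D8 replicate 3 was nearest to ESC for 19 of the 20 genes.

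Enzymes of choline, betaine and one-carbon metabolism were lower at D8 for 12 of 19 and higher for 3 (median log2 difference -1.42). Those shares were 63.2% and 15.8%, against 32.4% and 38.8% of all genes. Bhmt and Bhmt2, which remethylate homocysteine, had 5.58, 6.07 and 8.72 CPM and 0.993, 1.93 and 3.17 CPM at D8, against 84.8, 90.3 and 92.3 CPM and 37.4, 38.8 and 38.5 CPM in ESC (log2 differences -3.71 ± 0.26 and -4.21 ± 0.42). Dmgdh, which follows them in betaine breakdown and lies beside them on chromosome 13, had 7.6, 8.27 and 12 CPM at D8 and 106, 113 and 102 CPM in ESC (adjusted p = 1.75e-11). The D8 libraries were far below ESC in all 3 genes, and replicate 3 was highest each time. Chdh, the enzyme that makes betaine aldehyde from choline, was the exception, with 71.9, 60.6 and 61.9 CPM at D8 and 0, 0 and 0.155 CPM in ESC. Gldc, a subunit of the glycine cleavage system that was named after its values were seen, was also higher (log2 difference 1.36 ± 0.07). Aldh7a1 and Mat2b overlapped between the groups.

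Glycolysis genes went both ways, with 9 of 24 higher and 12 lower at D8 (median log2 difference -0.25). Higher members made up 37.5%, near the 38.8% of all genes, and lower members 50%, above the 32.4% of all genes. The glucose transporter gene Slc2a1 (GLUT1) had 3770, 3470 and 2320 CPM at D8 and 136, 148 and 154 CPM in ESC (log2 difference 4.44 ± 0.14, adjusted p = 9.74e-15). The second transporter, Slc2a3 (GLUT3), had 323, 413 and 561 CPM at D8 and 1602, 1630 and 1702 CPM in ESC (log2 difference -1.93 ± 0.14, adjusted p = 4.02e-10). The 2 transporters thus differed from ESC in opposite directions in all 3 libraries. Slc16a3, a lactate exporter, averaged 147 ± 8.91 CPM at D8 and 2.81 ± 0.257 CPM in ESC, and Pfkfb3, which makes the activator of phosphofructokinase, 71.9 ± 2.66 CPM at D8 and 6.7 ± 0.127 CPM in ESC. Aldoc was higher by a log2 difference of 2.24 ± 0.16, while Aldoa and Pgk1 overlapped between the groups.

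Genes of the tricarboxylic acid cycle differed by small steps, with 4 of 18 higher, 11 lower and none called at 2-fold (median log2 difference -0.34). By count the list leaned lower, at 61.1% against 32.4% of all genes, with 22.2% higher against 38.8%. Idh2, the NADP-linked mitochondrial dehydrogenase, had 86.2, 87.7 and 112 CPM at D8 and 185, 186 and 184 CPM in ESC (log2 difference -0.96 ± 0.1). Sdhd, Idh3a and Sdhc had log2 differences of -0.78 ± 0.1, -0.67 ± 0.07 and -0.66 ± 0.08, and Ogdh was higher (0.58 ± 0.07). Cs, citrate synthase, was at 376 ± 45.5 CPM at D8 and 385 ± 7.79 CPM in ESC, and the groups overlapped.

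FGF-ERK response genes were lower for 9 of 16 and higher for 5 (median log2 difference -1.22). Lower members made up 56.2% against 32.4% of all genes, and higher members 31.2%, below the 38.8% of all genes. Spry2, a feedback inhibitor of receptor tyrosine kinases, had 7.41, 5.99 and 7.78 CPM at D8 and 66.6, 67.7 and 78.1 CPM in ESC (log2 difference -3.32 ± 0.13, adjusted p = 1.93e-13), beside the low Spry4 and Etv4. Dusp4, an ERK phosphatase, was higher with 9.02, 8.51 and 9.15 CPM at D8 and 0.984, 1.13 and 0.904 CPM in ESC, as was Ier3 at 12.7 ± 1.23 CPM at D8 and 1.82 ± 0.558 CPM in ESC. The remaining higher genes were Fos, Fosl1 and Myc, named after their values were seen. Egr1 and Phlda1 were not called.

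WNT targets were higher for 5 of 13 and lower for 7, with a median log2 difference of -0.82. The share higher, 38.5%, was near the 38.8% of all genes, and the share lower was 53.8% against 32.4% of all genes. Lgr5, a receptor for R-spondins, had 33.5, 28.2 and 19.4 CPM at D8 and 0, 0.0983 and 0.24 CPM in ESC. Dkk1, a WNT antagonist, averaged 6.82 ± 1.03 CPM at D8 and 0.569 ± 0.187 CPM in ESC, and Rnf43, which removes WNT receptors, averaged 9.25 ± 1.93 CPM at D8 and 1.29 ± 0.371 CPM in ESC. Cdx1 and Ccnd1, a homeobox factor and cyclin D1, had 21.4, 19.7 and 42.8 CPM and 23.3, 23.3 and 37.2 CPM at D8, against 201, 201 and 195 CPM and 203, 203 and 193 CPM in ESC (log2 differences -2.83 ± 0.24 and -2.84 ± 0.13). Notum was at 33 ± 3.27 CPM at D8 and 39.2 ± 3.86 CPM in ESC and was not called.

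LIF-STAT3 genes gave 5 of 13 higher and 4 lower (median log2 difference -0.08), and these shares of 38.5% and 30.8% were near those of all genes. Stat3 itself overlapped with 126, 131 and 118 CPM at D8 and 132, 134 and 131 CPM in ESC (adjusted p = 0.325), and its feedback inhibitor Socs3 was not called. Bcl3 was lower at 26.2 ± 6.63 CPM at D8 and 81.3 ± 2.41 CPM in ESC. Tfcp2l1 and Klf4, which are on this list too, were lower at 24.3% and 41.9% of ESC. The kinase gene Pim3 was higher at 399 ± 32.3 CPM at D8 and 138 ± 9.93 CPM in ESC. At 2-fold or more, 1 member was called higher and 3 lower. The list summed to 1540 to 1829 CPM in D8 libraries and 2413 to 2570 CPM in ESC libraries. Junb was higher too (log2 difference 0.89 ± 0.18).

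BMP-SMAD targets gave 7 of 15 higher and 5 lower (median log2 difference 0.29). The share lower, 33.3%, was near the 32.4% of all genes, and the share higher was 46.7% against 38.8%. Dlx3, a homeobox gene of placenta and skin, had 124, 101 and 111 CPM at D8 and 0.367, 0.115 and 0.226 CPM in ESC (log2 difference 8.72 ± 0.27, adjusted p = 6.21e-15). Msx2 averaged 105 ± 12.2 CPM at D8 and 7.82 ± 0.517 CPM in ESC. Id1 and Id2, inhibitors of differentiation factors, had log2 differences of 2.21 ± 0.15 and 2.91 ± 0.19, whereas Id3 and Id4, named after their values were seen, had -1.04 ± 0.13 and -1.39 ± 0.26. Bambi and Smad9 were not called.

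The integrated stress response list split evenly, with 6 of 14 higher and 6 lower (median log2 difference 0.17). Each share was 42.9%, against 38.8% of all genes higher and 32.4% lower. Cebpb, Atf3 and Ddit3, transcription factors of the response, averaged 183 ± 22.2, 97 ± 18 and 23.6 ± 2.15 CPM at D8 and 5.14 ± 0.566, 8.97 ± 0.812 and 3.29 ± 0.665 CPM in ESC. Vldlr, a lipoprotein receptor, had 221, 217 and 159 CPM at D8 and 5.04, 5.09 and 6.88 CPM in ESC. Psat1, an enzyme of serine synthesis, was lower with 74, 76.8 and 96.6 CPM at D8 and 475, 482 and 510.0 CPM in ESC (log2 difference -2.57 ± 0.09, adjusted p = 1.58e-14). Sesn2 and Ddit4 were not called.

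DNA methylation and demethylation genes were lower for 7 of 9 (median log2 difference -0.47), 77.8% against 32.4% of all genes. Tet1 and Tet2, dioxygenases that oxidise 5-methylcytosine, had 79.8, 97.7 and 172 CPM and 18.6, 38.6 and 54.8 CPM at D8, against 508, 493 and 582 CPM and 114, 124 and 113 CPM in ESC. Tet3, their paralog, was the higher gene of the list, with 151, 145 and 144 CPM at D8 and 15.1, 15 and 14.6 CPM in ESC (log2 difference 3.29 ± 0.1, adjusted p = 7.22e-15). Uhrf1, which brings the maintenance methyltransferase to replicating DNA, had 106, 129.6 and 184 CPM at D8 and 606, 637 and 638 CPM in ESC. Dnmt1, that methyltransferase, was at 72.1% of ESC. Dnmt3l, a cofactor of the de novo enzymes, overlapped at 11.6 ± 4.82 CPM at D8 and 10.8 ± 0.927 CPM in ESC.

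Imprinted genes, expressed from 1 parental allele, were higher for 16 of 28 and lower for 8, with a median log2 difference of 1.16. Those shares were 57.1% and 28.6%, against 38.8% and 32.4% of all genes. Igf2 (chr7:142650766-142666816), a fetal growth factor, had 11772, 11203 and 9278 CPM at D8 and 8.86, 10 and 7.02 CPM in ESC (log2 difference 10.28 ± 0.19, adjusted p = 2.96e-17). H19, the noncoding RNA of the same cluster, had 1405, 1800 and 1388 CPM at D8 and 2.72, 2.85 and 1.58 CPM in ESC. Phlda2 and Slc22a18, neighbours on chromosome 7 that are expressed from the maternal allele in placenta, averaged 648 ± 143 and 203 ± 26.8 CPM at D8 and 1.45 ± 0.197 and 0.683 ± 0.0242 CPM in ESC. Peg10, a retrotransposon-derived placental gene that is also on the trophoblast list, had 16539, 16270 and 11015 CPM at D8 and 286, 311 and 306 CPM in ESC. In rES, Igf2 averaged 1.67 CPM and H19 4.85 CPM. Snrpn and Ndn overlapped between the groups and were not called. Antisense and overlapping transcripts in these clusters cannot be separated here, since the strand setting of the counting is not given in the sources used here.

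Germline genes were lower for 9 of 20 and higher for 3 (median log2 difference -0.47), shares of 45% and 15% against 32.4% and 38.8% of all genes. Stk31 and Mov10l1, of which the second is a helicase of the piRNA pathway, had 8.84, 10.6 and 13.8 CPM and 1.5, 1.99 and 2.7 CPM at D8, against 45.3, 43.5 and 54.1 CPM and 7.59, 9.25 and 8.48 CPM in ESC. Rbmxl2 had 22, 24.6 and 59.1 CPM at D8 and 117, 123 and 109.5 CPM in ESC, with D8 replicate 3 the highest D8 library. Ddx4, the germ cell helicase VASA, averaged 4.14 ± 1.57 CPM at D8 and 16.6 ± 1.41 CPM in ESC (adjusted p = 0.00686), a call lost with DESeq2 (adjusted p = 0.225). Tdrkh, a Tudor protein, was higher at 5.07 ± 0.643 CPM at D8 and 1.18 ± 0.141 CPM in ESC, whereas Slc25a31 and Tex101, named after their values were seen, made up the other higher calls, and 1 gene was higher without D8 replicate 3, ESC replicate 2 or ESC replicate 3. Hormad1 and Sycp3 were not called.

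Genes of 2-cell-like cells, a rare state within ESC cultures, were lower for 10 of 12 and higher for 0 (median log2 difference -2.14). Zscan4d, Zscan4c and Zscan4f averaged 2.24 ± 0.92, 2.69 ± 0.815 and 3.23 ± 0.989 CPM at D8 and 14.1 ± 1.7, 13.6 ± 1.86 and 15.8 ± 1.24 CPM in ESC. Zscan4a and Zscan4b had log2 differences of -2.64 ± 0.4 and -2.85 ± 0.38. Reads of these near-identical paralogs, which lie together on chromosome 7, cannot be assigned with certainty. Usp17ld and Zfp352 were under 1 CPM in every library and were not called.

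Sex-linked genes were read as a check on the lines. Uty and Eif2s3y, both on the Y chromosome, averaged 29.2 ± 2.85 and 71.5 ± 2.85 CPM at D8 and 42.8 ± 3.53 and 57.4 ± 2.27 CPM in ESC, and Xist, which silences the second X in female cells, was at 1.08 ± 0.374 CPM at D8 and 1.46 ± 0.906 CPM in ESC. Of the 6 genes 3 were higher and 1 was lower (median log2 difference -0.07). Kdm5d, a Y-linked histone demethylase, had 16.7, 22 and 21.9 CPM at D8 and 3.5, 2.9 and 4.79 CPM in ESC (log2 difference 2.42 ± 0.18, adjusted p = 1.13e-09), with 38 CPM in EpiSC and 7.5 CPM in rES. Ddx3y, a Y-linked helicase gene, was called higher at an adjusted p of 0.0403, but not without D8 replicate 2 (0.102), D8 replicate 3 (0.105), ESC replicate 1 (0.0726) or ESC replicate 2 (0.166). Zfy1 was not called.

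The D8 libraries were not equally far from ESC. The median SD of log2 CPM over genes was 0.216 among D8 libraries and 0.123 among ESC libraries, and it was larger at D8 for 65.5% of genes. Of the 12479 genes called, D8 replicate 3 was the D8 library nearest to the ESC mean for 7618 (61.0%), replicate 2 for 2750 and replicate 1 for 2111. The order held on both sides, with replicate 3 nearest for 59.9% of genes higher at D8 and 62.4% of genes lower at D8. For the naive list the median log2 difference from ESC was -1.89, -1.55 and -1.18 in D8 replicates 1 to 3, for the shared factors -1.76, -1.53 and -1.08, and for the cell cycle list -2.15, -1.94 and -1.64. Interferon-stimulated genes were at 5.8, 5.83 and 5.62, and the trophoblast list was at 6.36, 5.76 and 5.92. Some lists did not follow the order. Replicate 1 was nearest for 11 of 14 fibroblast, 7 of 12 erythroid, 12 of 22 cholesterol synthesis, 4 of 8 endothelial and 7 of 15 primitive endoderm genes, and replicate 2 was nearest for 4 of 8 neural progenitor genes. With 3 libraries a group this spread was described and not tested.

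**Figure D5:**
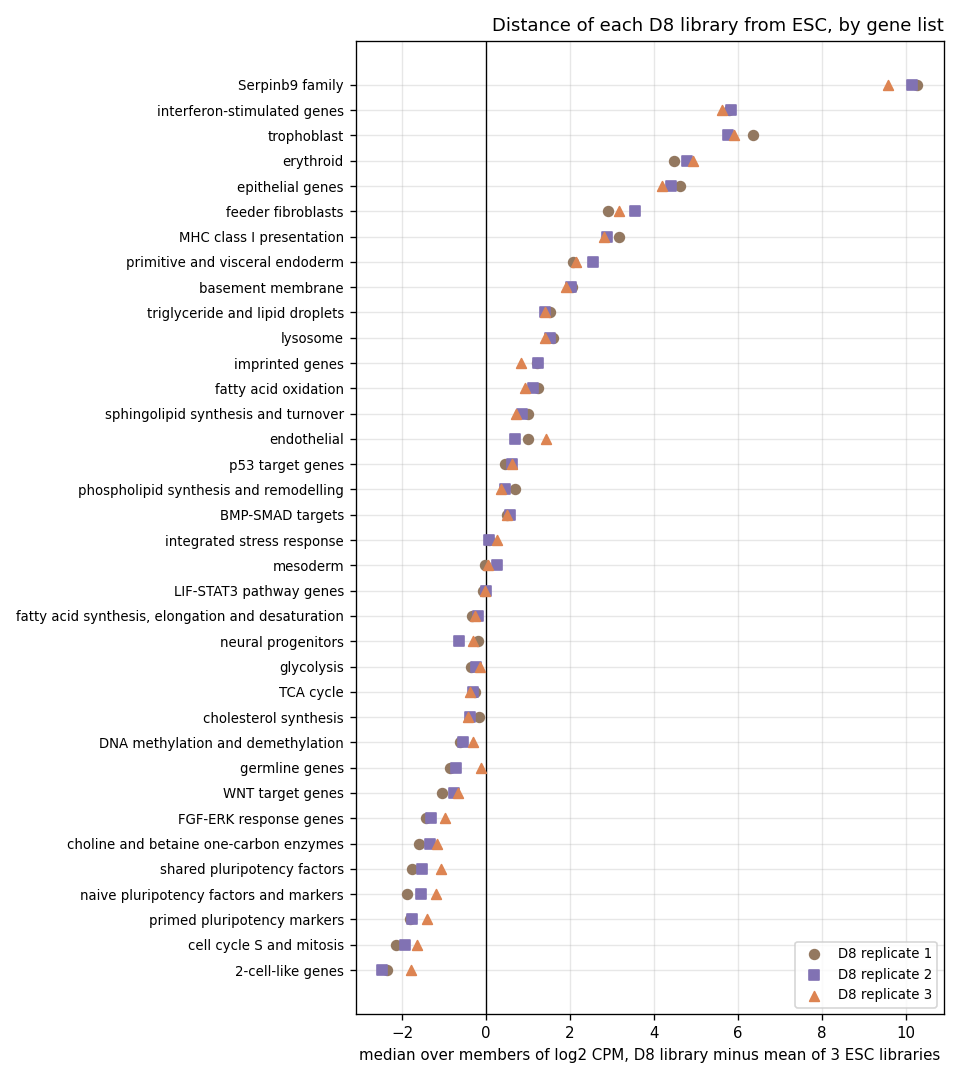
Median over list members of log2 CPM in each D8 library minus the mean of the 3 ESC libraries (x axis) for 36 gene lists (y axis), with a symbol for each D8 replicate. Replicate 3 lies nearer to 0 than replicates 1 and 2 for the naive, shared pluripotency and cell cycle lists.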

How the data were processed

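RNA was sequenced after removal of ribosomal RNA from total RNA, per the labels' protocols. The submitters' processing notes name bcl2fastq, Trim Galore, HISAT2 and the mm10 build. No source used here names the counting program, its annotation or its use of strand. The deposited table holds expected counts, taken as the authors deposited them and not normalized: whole numbers, with 1 row for each gene symbol and 1 column for each library. Low counts bunch at 4 and 8, so 3 units of 4, 12 counts per library, served as the floor for bounds (0.122 to 0.195 CPM at D8, 0.17 to 0.2 CPM in ESC). Floors cover counting error only.

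All 18 libraries were fitted together in R 4.3.3 with edgeR 4.0.16, which uses limma 3.58.1. filterByExpr kept 17545 of 25239 symbols, and TMM factors were 0.9452 to 1.05. D8 was tested against ESC with edgeR's quasi-likelihood F test, with Benjamini-Hochberg adjustment over all genes tested and a threshold of 0.05. The printed SE is approximate: the size of the log2 difference over the square root of F. Log2 values used a prior count of 2. In data simulated for this comparison (15459 genes), 67 genes were changed 1.5-fold at D8, 67 were changed 2-fold and 66 were changed 4-fold. Genes of the lowest counts were left unchanged, and all unchanged genes had equal means in every group. The test recovered 74.6%, 89.6% and 100% of the changed genes, and 5.38% of its calls were false. In the deposited data 71.1% of genes differed, so these shares cannot be carried over to them.

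Named genes were 12 fixed ones, then the 12 largest log2 differences in each direction (called, groups not overlapping, at least 10 CPM in a group, Gm and Rik symbols skipped), and from each of 37 lists up to 5 called members at 5 CPM or more and up to 2 members not called. The members and lists were chosen with earlier results of these data known. Positions of genes are those of GENCODE vM21 (GRCm38), and promoters are from RefSeq on GRCm38.p6; 18 of 22 interferon-stimulated, 13 of 15 antigen-presentation and 18 of 23 cell cycle genes matched a promoter. Alternatives were RLE scaling, no filter, DESeq2 1.42.0, the 6 libraries fitted alone, a replicate block, counts divided by 4, D8 replicate 2 thinned, and leaving out each D8 or ESC library. No column was left out. Some genes that the naming rule gives are not reported here.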

Additional observations from a re-analysis of the deposited data

How the results depend on the processing

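Counts over all genes stayed within 1.5 times of the reported ones under every alternative run. Leaving out each of the 6 libraries in turn gave 6472 to 6697 genes higher at D8 and 5312 to 5727 lower, 4769 to 4903 and 2659 to 3265 of them at least 2-fold. The share of called genes that were higher was 52.5% with counts divided by 4, 55.5% without D8 replicate 1 and 54.5% as reported. The replicate numbers gave no sign of pairing (median correlation of deviations -7.3e-05 over 45 pairs, 7 of 18 libraries best with their own number), and with a replicate block the genes higher at D8 than in ESC numbered 6649 and the genes lower at D8 than in ESC 5606. With the block Hormad1 passed (adjusted p = 0.0369) and 1 primitive endoderm gene was lower, as it also was without D8 replicate 2 or 3 or ESC replicate 1 or 3. Naive genes called higher numbered 1 with the 6 libraries fitted alone or without ESC replicate 1, and 0 without D8 replicate 3 or ESC replicate 3. Of other list counts, 1 mesoderm gene was lower without ESC replicate 3, 1 endothelial gene with counts divided by 4 or the 6 libraries alone, and 1 triglyceride gene without D8 replicate 1 or 2 or ESC replicate 1 or 2. Of the values of named genes, 3263 kept their side of the threshold, 29 newly passed it and 12 no longer did (Gsc, Ddx3y and Ddx4). The sign changed in 31 of these values, from 19 genes, of which 0 were called in either fit. Ddx3y also missed with RLE scaling, DESeq2 and the 6 libraries alone (adjusted p = 0.0702, 0.0515 and 0.0866). The causes were not tested. Depth limits statements on genes under 12 counts per library.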
